A study of Homo sapiens with 4 samples.

Results

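The genes described here are the transcriptional repressors and output factors of the circadian clock, PER1, PER2, PER3, CRY1, CRY2, NR1D1, NR1D2, DBP, BHLHE40 and BHLHE41. They were taken as every probe set on the array that names exactly 1 gene and whose gene is on that list. A probe set is a group of short oligonucleotides on the array that together measure 1 transcript or a few related ones. Of the 10 genes, 8 had such a probe set, out of 19775 genes with such a probe set on the array. They had 18 probe sets, out of 54613 that are not array controls. The 4 probe sets for PER1 and the 3 for NR1D1 also carry the name of a second gene, so PER1 and NR1D1 were not analysed here. The cells were HEK293, an established human embryonic kidney line transformed with adenovirus DNA. High glucose cells had been in DMEM with 450 mg/dl glucose for 7 days, and low glucose cells in DMEM with 100 mg/dl for the same time. Both media held 10% FCS (fetal calf serum), and each condition has 2 biological replicates, each on 1 array. The labels do not say how the replicate cultures were kept apart, so p-values measure only the spread between these samples. No hour of harvest or synchronising treatment is given in the sources used here, and each condition is seen at 1 time point.

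The clock is a feedback loop of transcription. CLOCK and BMAL1 bind E-box motifs and switch on the PER and CRY genes, whose proteins return to the nucleus and block CLOCK and BMAL1. A linked loop runs through the nuclear receptors NR1D1 and NR1D2 (REV-ERB alpha and beta), which repress BMAL1 at elements that the ROR receptors activate. DBP, a PAR bZIP factor, carries the rhythm to output genes through D-box motifs, and BHLHE40 and BHLHE41 (DEC1 and DEC2) are basic helix-loop-helix repressors that compete for E-boxes. Several of these genes also answer to serum, glucocorticoids, cAMP and stress, and the loop runs in cultured cells of many tissues.

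Promoters of the genes that changed are shown because the loop acts through motifs in them. Each window runs from 250 bases before to 50 bases after an annotated transcript start, 5′ to 3′ on the strand of the gene, from RefSeq on GRCh38.p14. Capitals mark any match, on either strand, to the E-box CACGTG, the D-box TTATGNAA, the ROR element half-site AGGTCA, the cAMP response element TGACGTCA or the amino acid response element TGATGNAA. The windows are PER3 (chr1:7784041-7784340, plus strand), NR1D2 at its second listed start (chr3:23945871-23946170, plus strand), BHLHE40 (chr3:4979187-4979486, plus strand), BHLHE41 (chr12:26124988-26125287, minus strand), DBP (chr19:48637330-48637629, minus strand) and CRY1 (chr12:107093500-107093799, minus strand).
PER3: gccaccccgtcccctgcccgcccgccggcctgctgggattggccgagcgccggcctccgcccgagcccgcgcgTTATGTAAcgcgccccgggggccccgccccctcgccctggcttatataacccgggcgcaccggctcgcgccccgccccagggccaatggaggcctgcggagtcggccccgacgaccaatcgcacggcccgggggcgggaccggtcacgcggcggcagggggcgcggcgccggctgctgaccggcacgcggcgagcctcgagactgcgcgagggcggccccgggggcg
NR1D2: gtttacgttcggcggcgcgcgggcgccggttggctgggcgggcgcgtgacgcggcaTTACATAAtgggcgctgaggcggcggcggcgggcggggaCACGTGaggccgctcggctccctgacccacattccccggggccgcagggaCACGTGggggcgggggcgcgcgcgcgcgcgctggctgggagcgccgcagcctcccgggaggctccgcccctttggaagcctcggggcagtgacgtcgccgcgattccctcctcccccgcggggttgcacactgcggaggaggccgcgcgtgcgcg
BHLHE40: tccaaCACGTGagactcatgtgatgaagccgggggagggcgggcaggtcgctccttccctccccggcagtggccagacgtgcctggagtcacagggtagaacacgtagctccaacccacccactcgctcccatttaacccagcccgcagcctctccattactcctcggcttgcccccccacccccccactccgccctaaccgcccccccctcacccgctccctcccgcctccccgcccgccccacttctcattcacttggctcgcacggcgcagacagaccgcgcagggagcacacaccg
BHLHE41: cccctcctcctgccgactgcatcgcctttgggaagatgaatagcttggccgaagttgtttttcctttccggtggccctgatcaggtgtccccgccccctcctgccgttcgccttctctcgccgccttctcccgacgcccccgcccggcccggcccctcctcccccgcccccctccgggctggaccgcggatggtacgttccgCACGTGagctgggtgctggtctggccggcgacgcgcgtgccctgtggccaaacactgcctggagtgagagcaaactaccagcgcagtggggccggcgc
DBP: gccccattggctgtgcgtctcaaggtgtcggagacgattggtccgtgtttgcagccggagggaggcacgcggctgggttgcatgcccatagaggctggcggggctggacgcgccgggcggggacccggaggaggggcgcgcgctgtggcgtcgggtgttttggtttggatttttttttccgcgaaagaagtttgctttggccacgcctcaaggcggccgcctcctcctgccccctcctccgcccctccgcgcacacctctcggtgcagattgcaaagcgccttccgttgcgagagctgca
CRY1: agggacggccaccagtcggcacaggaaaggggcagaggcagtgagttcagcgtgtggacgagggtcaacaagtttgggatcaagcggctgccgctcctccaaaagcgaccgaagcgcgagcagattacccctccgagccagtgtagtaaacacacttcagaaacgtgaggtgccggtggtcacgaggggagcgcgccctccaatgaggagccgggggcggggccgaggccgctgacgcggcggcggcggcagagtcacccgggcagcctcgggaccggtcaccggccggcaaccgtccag

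The PER3 window held a D-box that begins 177 bases upstream of the start. NR1D2 held E-boxes at 155 and 105 bases upstream and a D-box on the opposite strand at 194 bases. The other listed windows of PER3 and NR1D2 had no match. BHLHE40 had an E-box at 245 bases upstream and BHLHE41 had one at 48 bases. The DBP and CRY1 windows had no match to these letters, which says nothing of motifs outside the window or of other spellings. All 8 measured genes had a RefSeq promoter, 11 windows in all. The E-box was in 3 of these windows, against 7.26% of 35116 promoter windows in RefSeq, and the D-box in 2, against 3.3%. The ROR half-site was in both CRY2 windows and in no other (13.8% of all windows), and the cAMP element (1.85% of all) and amino acid element (3.62% of all) were in 0 of the 11. A match is a description of the letters and not a bound site.

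Most of these genes that were measured had lower transcript levels in high glucose. PER3, NR1D2, DBP, BHLHE40 and BHLHE41 fell, with the brightest probe set of each between 1.56-fold and 2.79-fold lower in high than in low glucose. CRY1 rose 1.23-fold. PER2 and CRY2 did not pass the test. By probe set, 10 of 18 lay above the filter (a mean log2 signal over the 4 arrays at or above the median of all probe sets, which equals a signal of 32.9), and 7 of these 10 passed a limma adjusted p under 0.05, where 50.4% of all 27307 probe sets tested did so. Of the 7, 6 were lower in high glucose (27.2% of all) and 1 was higher (23.1% of all). The median log2 difference of the 10 was -0.895, and that of all probe sets tested was -0.06. Over all 18 clock probe sets, fitted with no filter, the median was -0.157, close to the -0.128 of all probe sets in that fit. Signals of the 2 conditions did not overlap in 8 of the 10, compared with 76.8% of all probe sets tested. In such bulk samples fewer cells that express a gene and less RNA per cell cannot be told apart.

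**Figure D1:**
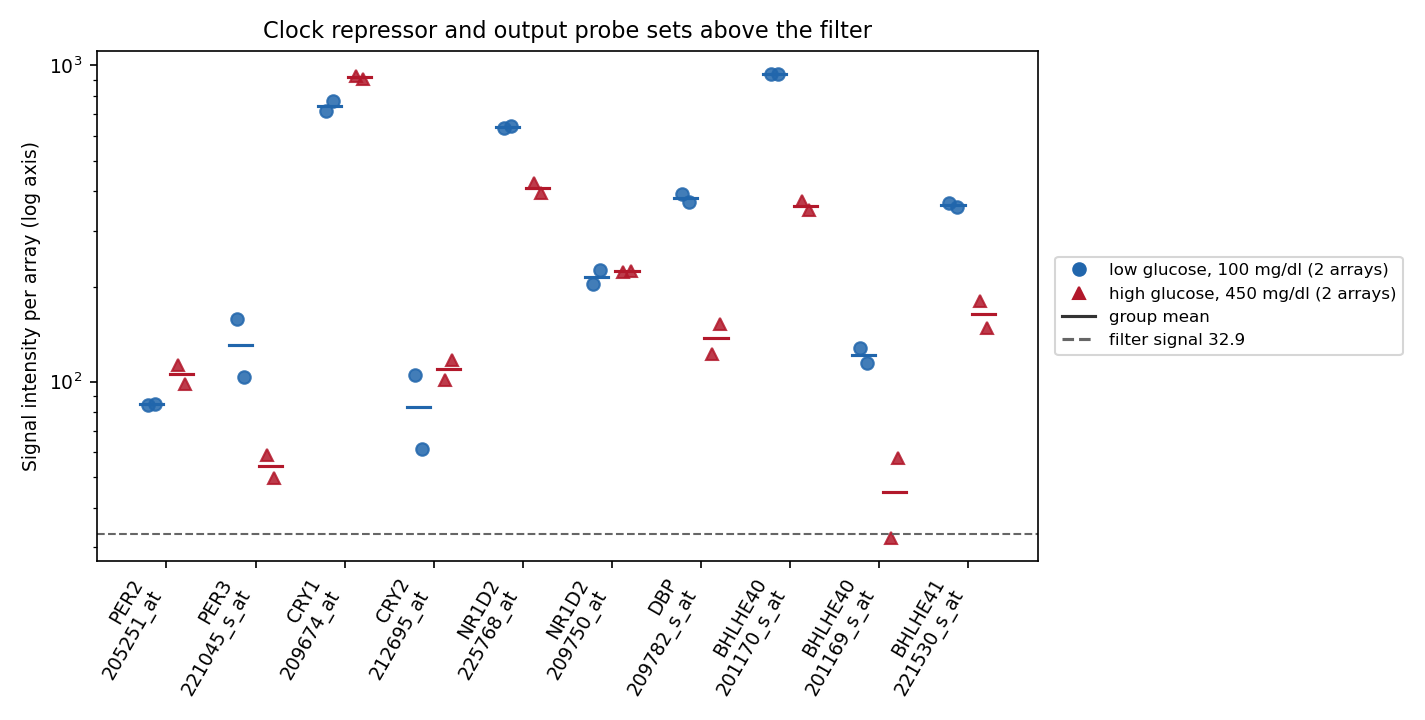
Signal intensity on a log axis for the 10 clock probe sets above the filter, with 1 point per array, blue circles for low glucose, red triangles for high glucose, short lines for the mean of 2 arrays and a dashed line at the filter signal of 32.9. For PER3, DBP, BHLHE40, BHLHE41 and the brighter NR1D2 probe set both high glucose arrays lie below both low glucose arrays. For CRY1 and PER2 both lie above, though PER2 did not pass the test.

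Facts of the whole series bear on these values. The authors had scaled each array to a trimmed mean of 200.02. Array correlations across the probe sets above the filter, which are not independent replicates, were r = 0.988 in high and r = 0.985 in low glucose, and 0.925 to 0.928 between conditions. Bacterial poly-A spikes, added to the RNA before labelling, were 3.84-fold higher in high glucose (median of 24 probe sets). Of the 10 clock probe sets 0 rose by as much. NOCT, a gene of the partner lists that was below the filter signal in low glucose, is not set against the spikes. Ribosomal RNA probe sets were 3.31-fold higher in high glucose. The hybridisation controls had a median signal of 485 on high glucose replicate 1 against 867 to 886 on the other arrays. The part of these controls in the results was not tested, and a labelling batch that follows them cannot be told apart from glucose. Of 6 markers of HEK293 cells 5 were above the filter, while NEFM stayed at 28.8 or less. PAX2 was the dimmest of the 5, at 34.63 to 35.68 in high and 37.61 to 54.65 in low glucose. KRT8 stood at 5545 to 6493 in high against 2845 to 2897 in low glucose, and KRT18 at 8315 to 9775 against 4293 to 4309. VIM went the other way, at 5567 to 5971 in high against 10580 to 11040 in low glucose, and NEFL read 1179 to 1354 and 1352 to 1442. The part of these marker shifts in the results was not tested. Of 7 markers of immune, endothelial, liver and fibroblast cells only PECAM1 (20.7 to 48.9) was above the filter, and PTPRC stood at 5.49 to 9.36. The signals of PECAM1 overlapped those of PAX2, so PAX2 was not set apart from a marker of other cells. Centring each array on its median instead moved the median difference of all probe sets from -0.06 to 0.11 and the share of higher probe sets among calls from 45.9% to 63%. All 10 clock probe sets kept their sign under that and the other normalizations, with their own median at -0.725 after centring.

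The BHLHE4 repressors fell together. BHLHE40, an E-box repressor that is also induced by hypoxia and other stress, gave signals of 373 and 348 on the high glucose arrays and 937 and 940 on the low glucose arrays (probe set 201170_s_at). Its high glucose mean was 360 ± 18 and its low glucose mean 939 ± 2 (SD, n = 2), a log2 difference of -1.38 ± 0.07 (SE) or 2.61-fold lower (limma adjusted p = 1.38e-05). The dimmer probe set 201169_s_at read 32.2 and 57.4 in high against 128 and 115 in low glucose. It also fell by 1.49 ± 0.30 log2 units (adjusted p = 0.00515 by limma), and 1 of its high glucose arrays lay just under the filter signal. Both BHLHE40 probe sets thus separated the conditions in the same direction. Only 2.38% of all probe sets tested had a log2 difference further down than 201169_s_at, and 3.09% further down than 201170_s_at.

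BHLHE41, the paralog that shares the E-box binding domain type, stood at 180 and 148 in high against 368 and 356 in low glucose in probe set 221530_s_at. The change was -1.15 ± 0.12 log2 units, or 2.22-fold lower in high glucose (limma adjusted p = 0.000272). The difference between the falls of BHLHE40 and BHLHE41 was -0.23 log2 units, with an exact two-sided permutation p of 0.333 over 4 arrays. This is the smallest that 2 against 2 arrays allow, so the test cannot decide whether the falls differ. The other 3 BHLHE41 probe sets were below the filter, none of them separated the conditions, and their signals ran from 4.76 to 62.5.

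DBP, the output factor, fell most among the brightest probe sets. Its probe set 209782_s_at gave 123 and 152 in high against 392 and 370 in low glucose, means of 137 ± 21 and 381 ± 15 (SD, n = 2). The log2 difference was -1.48 ± 0.13, or 2.79-fold lower (limma adjusted p = 0.000122), and 2.47% of all probe sets tested lay further down. The second DBP probe set, 209783_at, went the opposite way, at 26.2 and 19.1 in high against 13.8 and 6.19 in low glucose. It lay below the filter, and in a fit with no filter its difference of 1.28 ± 0.70 did not pass (limma adjusted p = 0.258).

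**Figure D2:**
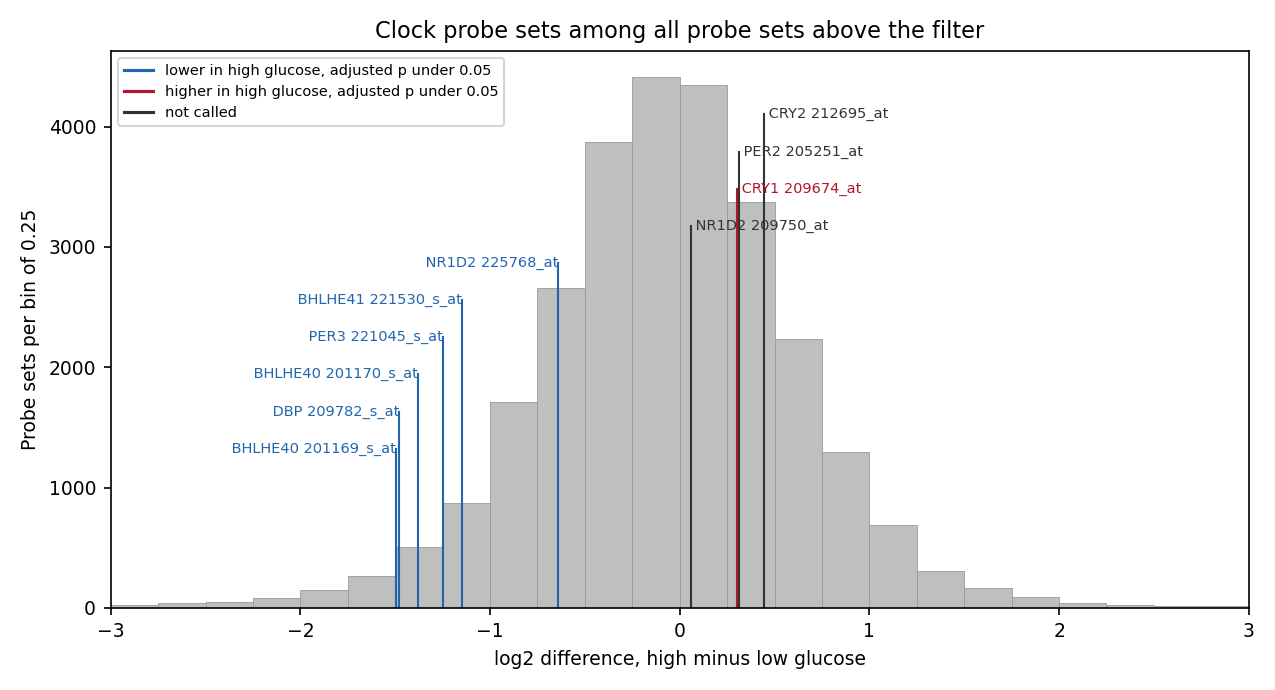
Histogram of log2 differences, high minus low glucose, for all 27307 probe sets above the filter in bins of 0.25, with a line at the value of each of the 10 clock probe sets (line heights only separate the names, and differences beyond 3 in size lie outside the axis). The 6 blue lines are lower in high glucose at a limma adjusted p under 0.05, 5 of them beyond -1, the red line is CRY1, and the black lines did not pass.

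The PER genes, whose proteins carry the CRY proteins into the repressive complex, were split, since PER3 passed the test and PER2 did not. PER3 read 58.5 and 49.5 in high against 158 and 103 in low glucose in probe set 221045_s_at, so both high glucose arrays were below both low glucose arrays although the latter were far apart. The log2 difference was -1.25 ± 0.25, or 2.37-fold lower in high glucose (limma adjusted p = 0.00546). PER2 read 113 and 98.2 in high against 84.7 and 84.8 in low glucose in probe set 205251_at. Its groups did not overlap, but the difference of 0.31 ± 0.18 did not pass (95% confidence interval -0.11 to 0.73, limma adjusted p = 0.183). The change of PER2 minus that of PER3 was 1.56 log2 units. Its exact permutation p was 0.333, again the smallest possible, so the test cannot decide whether the changes differ.

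Further PER probe sets were dim. For PER3, 1555131_a_at gave 21.6 and 26.3 in high and 42.6 and 35.9 in low glucose, the direction of the brighter probe set. PER3 probe set 1569701_at gave 10.9 and 12.4 in high and 3.69 and 2.81 in low glucose, the opposite direction, and 1555130_at gave 6.80 and 1.24 in high glucose, within the span of its low glucose arrays, the lower of which read 0.554. The dim PER2 probe set 208518_s_at read 11.4 and 2.13 in high and 27.3 and 32.9 in low glucose, opposite to the brighter one. Of the 8 clock probe sets below the filter, 4 separated the conditions, against 42.9% of all probe sets below it, and 0 passed in the limma fit with no filter, against 3.13%. In that fit the smallest adjusted p among the 8 was 0.0904, for PER2, so these signals give no settled direction.

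**Figure D3:**
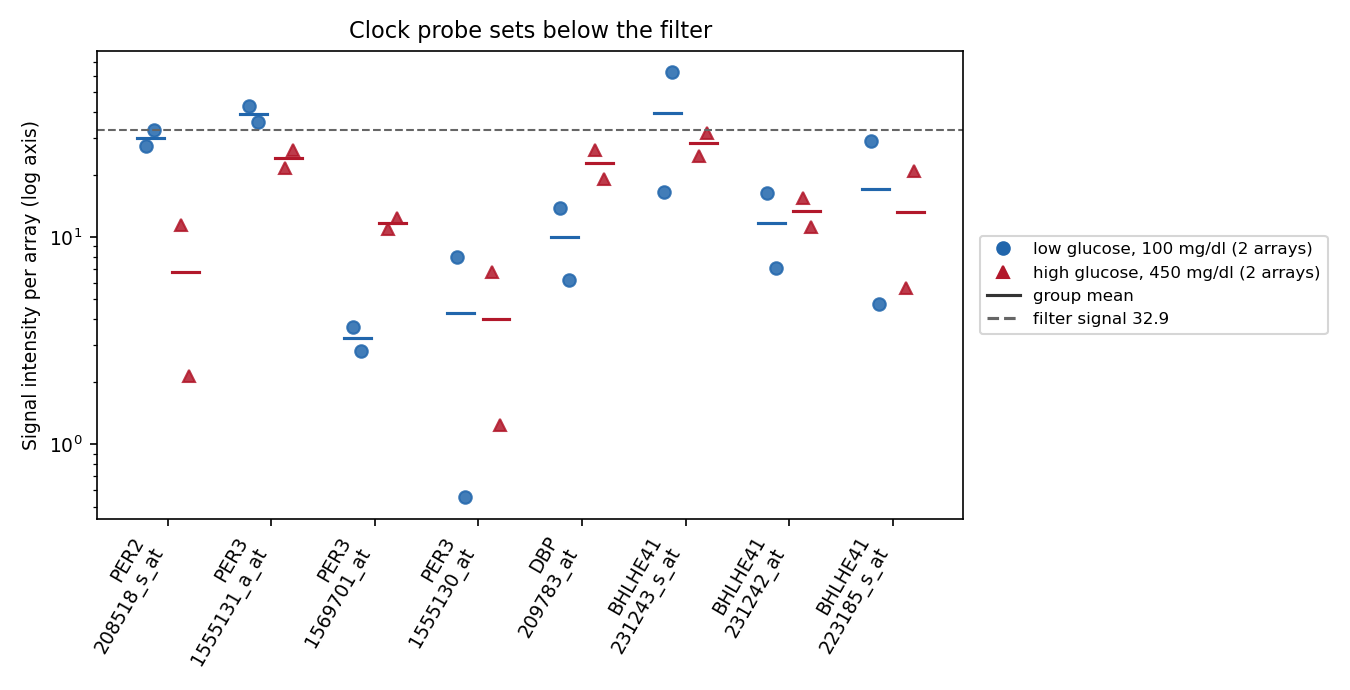
Signal intensity on a log axis for the 8 clock probe sets below the filter, drawn as in the plot of brighter probe sets, with a dashed line at 32.9. The points of BHLHE41 and of PER3 1555130_at overlap between conditions, while those of DBP, PER2 and the other PER3 probe sets are separate, in both directions.

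The CRY genes encode the strongest repressors of CLOCK and BMAL1. CRY1 rose by a small amount, from 720 and 770 in low to 927 and 909 in high glucose (probe set 209674_at). This was 0.30 ± 0.06 log2 units, or 1.23-fold (limma adjusted p = 0.00706), and 61.8% of all probe sets tested differed by more. The CRY1 call was lost when the variance was not fitted against intensity (limma adjusted p = 0.057, over a range from 0.00153 to 0.057). CRY2 gave 102 and 117 in high against 105 and 61.2 in low glucose, so the groups overlapped. Its difference of 0.44 ± 0.27 did not pass (95% confidence interval -0.20 to 1.09, limma adjusted p = 0.215). The CRY2 value turned on the low glucose arrays, with 0.83 and an adjusted p of 0.0196 without low glucose replicate 1 and 0.05 and an adjusted p of 0.862 without replicate 2. The change of CRY1 minus that of CRY2 was -0.14 log2 units (exact permutation p = 1).

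NR1D2, the heme-binding repressor REV-ERB beta, passed the test in 1 of its 2 probe sets. In the brighter one, 225768_at, signals were 426 and 394 in high and 636 and 642 in low glucose. This was a fall of 1.56-fold, with a log2 difference of -0.64 ± 0.07 (limma adjusted p = 0.000397). In the other, 209750_at, they were 223 and 224 in high and 203 and 226 in low glucose, a difference of 0.06 ± 0.11 with a 95% confidence interval of -0.20 to 0.32 that does not reach the fall of the brighter probe set (limma adjusted p = 0.673). The change in 225768_at minus that in 209750_at was -0.70 log2 units. Its exact permutation p was 0.333, the smallest possible, so that test cannot decide whether the changes differ. The fall of NR1D2 therefore rests on 1 of its 2 measured probe sets. Passing in both directions, which NR1D2 did not do, was seen in 8.87% (555 of 6255) of genes with several probe sets above the filter.

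**Figure D4:**
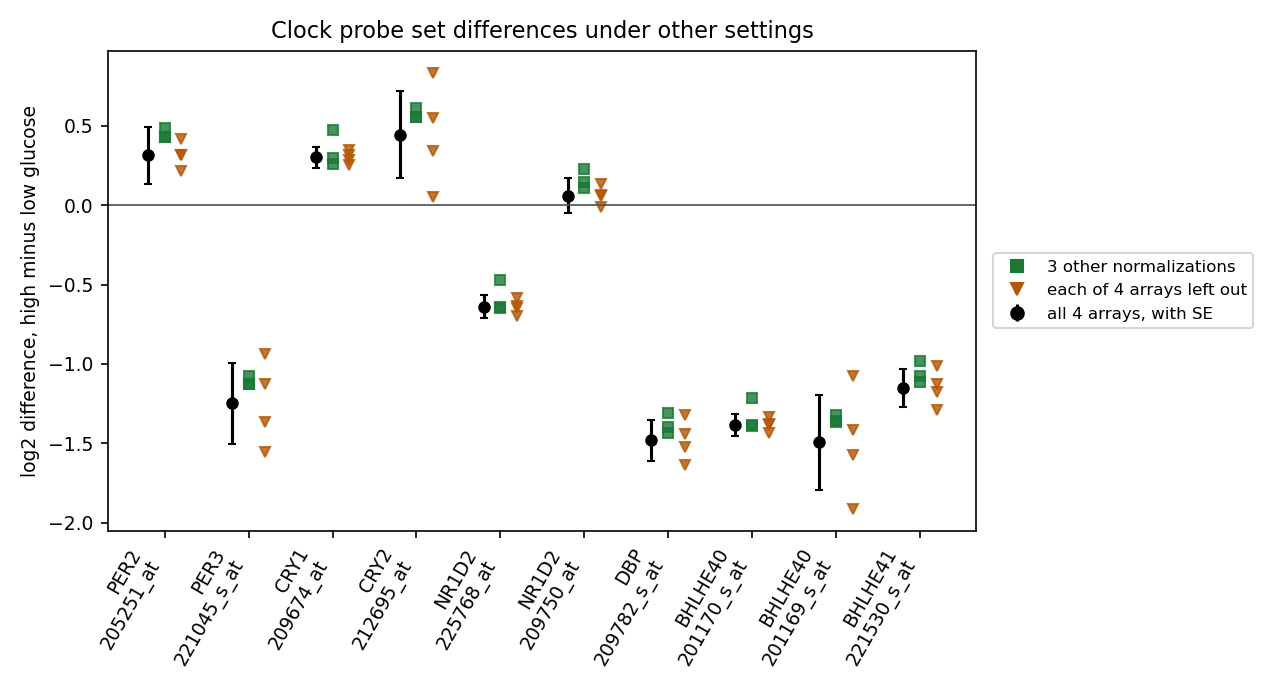
log2 difference, high minus low glucose, of the 10 clock probe sets with all 4 arrays (black, bars are SE), under 3 other normalizations (green squares) and with each of the 4 arrays left out (orange triangles). The 6 probe sets that fell stay between -1.91 and -0.47 throughout, and CRY2 ranges from 0.05 to 0.83 as single arrays are left out.

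With 1 value per gene, from the brightest probe set, 6 of the 8 clock genes passed the limma test (57.6% of all 12242 genes did), 5 of them lower (33.3% of all) and 1 higher (24.3% of all). The median of the 8 was -0.895 and that of all genes -0.10. PER3, DBP, BHLHE40 and BHLHE41 were above the filter only in probe sets ending in _s_at, which match several transcripts. Without _x_at and _s_at probe sets, 4 clock genes were measured, and CRY1 (higher) and NR1D2 (lower) passed.

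The partners of these repressors were read from lists on the same scale of 1 probe set per gene, and each list is given by its counts. Among the activators and ROR receptors, 5 of 7 were measured, 2 fell, 1 rose and 2 did not pass, with a median of -0.11 (-0.10 over all genes). Over all genes 33.3% were lower and 24.3% higher, 57.6% called in all, and the counts of this and the following lists are to be read against these shares. BMAL1, the dimer partner of CLOCK and the target that NR1D2 represses, read 182 and 198 in high and 341 and 286 in low glucose. It fell 1.65-fold (-0.72 ± 0.12 log2 units, limma adjusted p = 0.00185), and its second probe set fell by 0.54 log2 units. RORA, which activates BMAL1, read 105 and 104 in high against 345 and 328 in low glucose and fell 3.21-fold (limma adjusted p = 2.62e-05). The other 3 RORA probe sets above the filter did not pass. Their log2 differences were -0.43 in 210426_x_at and -0.15 in 235567_at. No fold is given for 210479_s_at, which passed the filter through its low glucose arrays alone (high glucose mean 30.8). CLOCK stood at 383 and 358 in high and 367 and 352 in low glucose and did not pass (0.04 ± 0.08). BMAL2 rose by 0.45 ± 0.15 log2 units (limma adjusted p = 0.0354), a call lost without high glucose replicate 1 (0.0635), without high glucose replicate 2 (0.157) and without low glucose replicate 2 (0.155), over a range from 0.00327 to 0.157. It was also lost with no intensity trend (0.0584) and with the mean of its probe sets (0.27 log2 units, adjusted p = 0.155). Of the other BMAL2 probe sets, 224204_x_at rose by 0.61 log2 units (limma adjusted p = 0.0437), while 223586_at stood at -0.27 and did not pass.

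The other outputs and cofactors had 15 of 16 genes measured, of which 8 fell, 3 rose and 4 did not pass (median -0.18; 33.3% of all genes were lower and 24.3% higher). Of these, HLF among the 8 and NOCT among the 3 passed the filter through 1 condition alone. WDR5, a chromatin protein named after its values were seen and counted among the 8 by its brightest probe set, rose 2.24-fold in the other one, 223308_s_at (limma adjusted p = 1.4e-05). NFIL3, the repressor that binds the same D-box as DBP, fell 1.93-fold, from 663 and 675 in low to 307 and 392 in high glucose (limma adjusted p = 0.00032). TEF, a PAR bZIP relative of DBP, read 107 and 137 in high and 206 and 176 in low glucose, 1.57-fold lower (limma adjusted p = 0.0139). The TEF call was lost without high glucose replicate 1 (adjusted p = 0.0704) and without low glucose replicate 1 (0.0732), over a range from 0.0106 to 0.0732. HLF, the third PAR bZIP gene, was named after its values were seen, as was CIART. HLF read 20.0 and 19.0 in high and 70.6 and 56.2 in low glucose. It passed the filter through its low glucose arrays alone, so no fold or test is given. CIART, a repressor of CLOCK and BMAL1, read 42.3 and 55.7 in high against 90.4 and 80.0 in low glucose. Its fall of 0.81 ± 0.25 log2 units (limma adjusted p = 0.0242) was lost without high glucose replicate 1 (0.114), low glucose replicate 1 (0.106) and low glucose replicate 2 (0.051), over a range from 0.0196 to 0.114.

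In the opposite direction, NOCT, a rhythmic phosphatase of NADP cofactors also called nocturnin, read 106 and 104 in high and 23.2 and 19.5 in low glucose. Its low glucose mean of 21.3 lay below the filter signal and it passed the filter through its high glucose arrays alone, so no fold or test is given. The other NOCT probe set stood at 0.11 and did not pass. SFPQ, an RNA-binding partner of PER complexes, rose 1.42-fold, from 3445 and 3483 to 4933 and 4917. TIMELESS, a replication fork protein related to a fly clock gene, fell 1.34-fold in its brighter probe set, and the dimmer one, at 0.30, did not pass. With the mean of both TIMELESS probe sets the value was -0.06 and the call was lost (limma adjusted p = 0.528, over a range from 0.000646 to 0.528). Without low glucose replicate 1 this list had 7 calls in place of 11.

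Enzymes that act on clock proteins, kinases, phosphatases and ubiquitin ligases, had 17 of 18 genes measured, with 7 lower, 4 higher and 6 not passing (median -0.08). Its 11 calls stand beside 57.6% of all genes called, 33.3% lower and 24.3% higher. CSNK1D, the casein kinase that phosphorylates PER proteins, fell 2.24-fold in its brighter probe set, from 2361 and 2391 in low to 1155 and 972 in high glucose (limma adjusted p = 2.81e-05). Its probe set 207945_s_at stood at 0.15 and did not pass. SIAH2, a ubiquitin ligase that acts on REV-ERB proteins, read 257 and 301 in high and 596 and 565 in low glucose, 2.09-fold lower. CSNK2A1, a catalytic subunit of casein kinase 2, rose 1.37-fold, and GSK3B, a kinase that acts on several clock proteins, fell 1.33-fold. With the mean of its probe sets GSK3B stood at -0.15 and did not pass (adjusted p = 0.18, over a range from 0.00113 to 0.18). This list lost calls by more than 1.5 times, to 6, both without low glucose replicate 2 and with no intensity trend.

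The list of cAMP and glucocorticoid inputs also holds genes that glucocorticoids induce. It had 12 of 13 genes measured, with 6 lower, 2 higher and 4 not passing (median -0.28). Over all genes 33.3% were lower and 24.3% higher. TSC22D3 (GILZ), a glucocorticoid-induced gene, fell 3.60-fold, from 869 and 864 in low to 223 and 260 in high glucose (limma adjusted p = 6.8e-06). KLF9, a glucocorticoid-induced and rhythmic zinc finger factor, read 197 and 159 in high against 501 and 508 in low glucose, 2.85-fold lower. FKBP5, a further gene induced by glucocorticoids and named after its values were seen, went the other way, at 1209 and 1207 in high and 944 and 876 in low glucose (0.41 ± 0.06 log2 units, limma adjusted p = 0.000929). The FKBP5 call was lost with the mean of its probe sets (adjusted p = 0.0753, over a range from 5.96e-05 to 0.0753). The CREB coactivators CRTC2 and CRTC3 fell 1.78-fold and 1.51-fold. A dim probe set of CRTC3 stood at 0.51 and did not pass, and the mean of both CRTC3 probe sets was -0.04 (adjusted p = 0.774, against 8.64e-05 at the lowest).

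**Figure D5:**
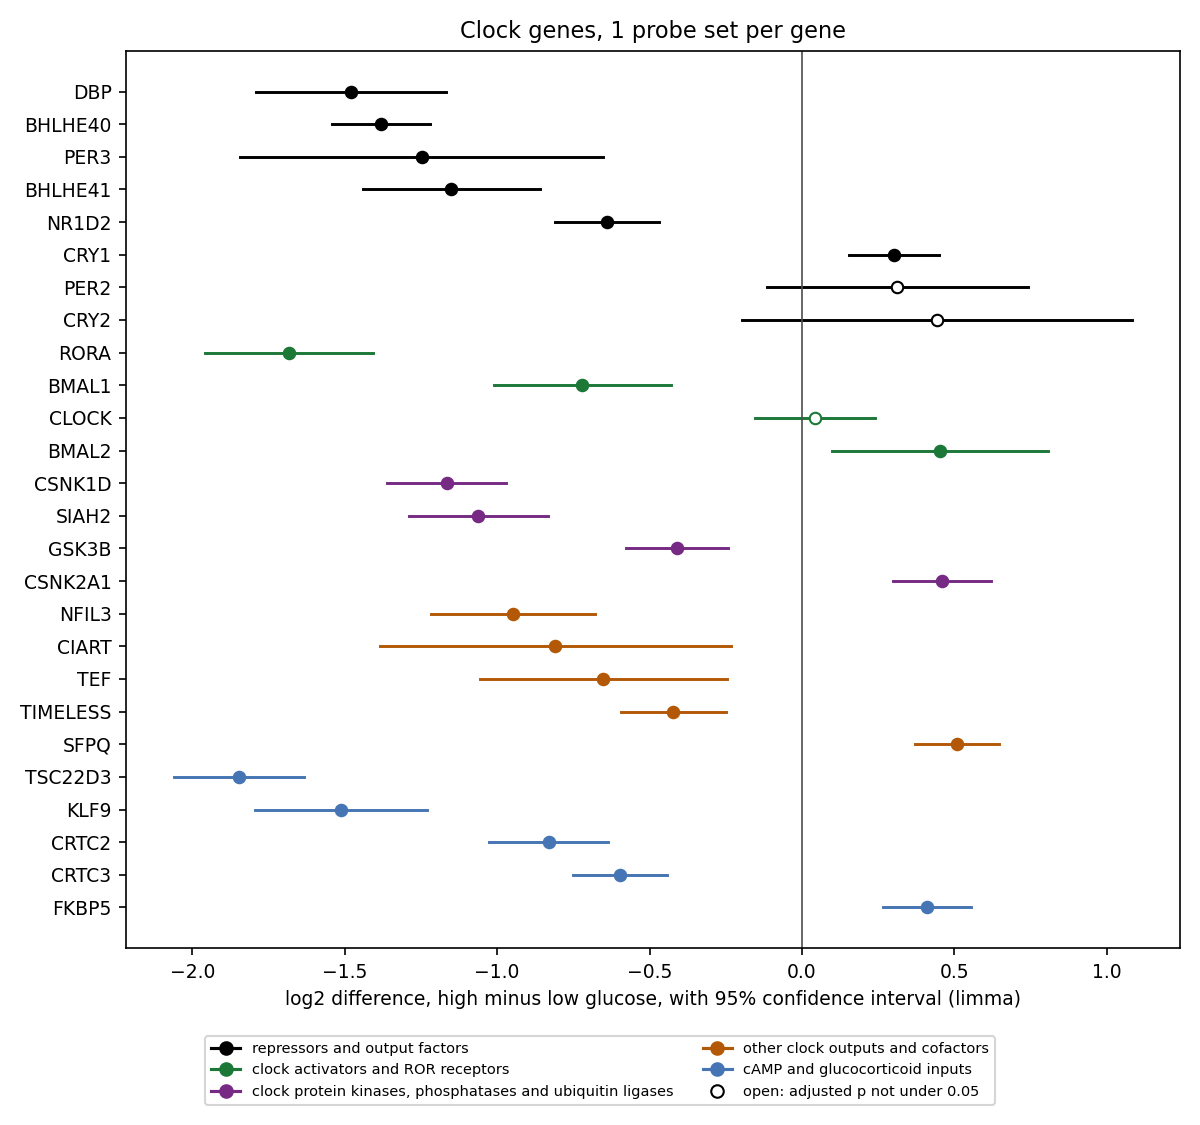
log2 difference, high minus low glucose, with 95% confidence interval for the 8 measured repressors and output factors (black) and the named genes of the other lists (colours, without HLF and NOCT, which were below the filter signal in 1 condition), 1 probe set per gene, with open circles for genes that did not pass a limma adjusted p under 0.05. DBP, BHLHE40, PER3, BHLHE41 and NR1D2 lie left of 0 beside RORA, BMAL1, NFIL3, CIART and TEF, while CRY1, BMAL2 and SFPQ lie right of it.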

How the data were processed

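Linear signal intensities of each probe set were used as deposited by the authors, who per the submitters' processing notes used GCOS. Its version was not given in the sources used here, and detection calls were not used. On the values themselves, the 2% trimmed mean was 200.02 on every array, so a change common to most transcripts cannot be seen. Gene names came from GEO's platform annotation, with symbols updated by gene identifier (41043 of 41097 single-gene probe sets matched RefSeq of GRCh38.p14).

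The intensities were log2-transformed with no pseudocount, the 62 control probe sets were left out, and probe sets with a mean log2 signal at or above the median (a signal of 32.9) were kept. The conditions were compared by limma 3.58.1 (R 4.3.3; lmFit, eBayes with intensity trend), over all 27307 probe sets and, for counts of genes and the other lists, over 12242 genes by their brightest probe set. P-values are two-sided with Benjamini-Hochberg adjustment, and the threshold was 0.05. The fit was tested on simulated data with 200 changed probe sets of 27307. It recovered 17.9% of changes of 0.5 log2 units, 56.7% of changes of 1 and 85.3% of changes of 2. Of its calls 6.19% were false. In the data 50.4% of probe sets were called, far more than were changed in the simulation, so these rates need not hold there. Members, lists and tests were chosen with earlier results of these data known. All members were named, and of each other list up to 4 passing genes with the smallest p, with CLOCK, BMAL1, TEF and NFIL3 whatever their values. Alternatives covered normalization, filter, a pseudocount of 2.91, trend, replicate block, choice of probe set and leaving out each array. The number of arrays limits the precision.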

Additional observations from a re-analysis of the deposited data

How the results depend on the processing

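The 6 clock probe sets that fell and the 5 genes behind them kept their direction and their call wherever they were measured. The stricter filter (signal of 199) left 6 clock probe sets and took the array-wide calls to 9115, of which 4553 were lower, and leaving out 1 array gave 11167 to 12381. Clock probe sets called higher numbered 0 with no trend (CRY1 lost) and 1 to 2 with 1 array left out (CRY2 added). Clock genes called higher numbered 2 after median centring (CRY2 added) and 1 to 2 with 1 array left out. Without _x_at and _s_at probe sets 2 clock genes were called, 1 of them lower, since fewer were measured. The activator list had 1 call with the stricter filter, the enzyme list 6 with no trend and 6 to 10 with 1 array left out, and the outputs list 7 with the stricter filter, 7 without _x_at and _s_at probe sets and 7 to 9 with 1 array left out; the cause was not tested beyond the fewer probe sets that remain. Signs turned for genes that did not pass there. NR1D2 209750_at ranged from -0.015 to 0.13 and CLOCK from -0.0040 to 0.091 with 1 array left out, and without _x_at and _s_at probe sets BMAL2 stood at -0.27 and TIMELESS at 0.30. With 1 array left out, the lone array of a group is assumed to vary like the other group. No label ties the replicate numbers to a shared batch, and deviations of equal numbers correlated with r = 0.008; a replicate block gave 13842 calls over the array and 7 clock probe sets, and changed no clock member's call. Signals near the filter limit what can be said of the 8 dim probe sets.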

Other observations

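Probe sets of several clock partners disagreed. CLOCK had 3 probe sets above the filter, of which 225856_at rose from 234 and 238 in low to 316 and 311 in high glucose (0.41 log2 units, limma adjusted p = 0.00758), 204980_at read 204 and 287 in low against 191 and 180 in high glucose without passing, and 227531_at hardly differed. GSK3B was called in both directions, with 209945_s_at at 466 and 468 in high against 239 and 247 in low glucose (0.94 log2 units) while 226183_at fell by 0.53 log2 units (limma adjusted p = 0.00608). Of the other genes on the lists, CREB1 (1 probe set higher, 3 lower), CREM (2 higher, 1 lower) and WDR5 (1 higher, 1 lower) were also called in both directions. The largest of these was WDR5 223308_s_at, at 1433 and 1391 in high against 627 and 632 in low glucose. WDR5 225170_at fell by 0.17 log2 units (limma adjusted p = 0.0469). Over all genes with several probe sets above the filter, 8.87% were called in both directions. Further genes did not pass by their brightest probe set but were called in others. NAMPT and NPAS2 were lower in 2 of 4 probe sets above the filter, and CSNK2A2, FBXW11 and WEE1 in 1 of 2. For NPAS2 these include 39549_at, which passed the filter through its low glucose arrays alone (high glucose mean 31.1, below the filter signal). NR3C1 was higher in 3 of 5, BTRC in 2 of 3 and PRKAA2 in 2 of 5.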
